A study of Saccharomyces cerevisiae with 6 samples.

Results

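Peroxisome biogenesis genes and other peroxisomal genes outside the core of fatty acid oxidation were followed in 2 strains of Saccharomyces cerevisiae. The 31 genes were chosen by name: 19 whose gene name in the authors' deposited table is PEX and a number, and 12 named one by one (INP1, INP2, VPS1, DNM1, FIS1, ANT1, TES1, DCI1, MDH3, NPY1, OAF1 and PIP2). INP1 and INP2 stand in that table by systematic name only and were found through the annotation of assembly R64. The same is true of 10 further peroxins, which the naming rule therefore misses, and they are given separately as the further peroxins. The whole table holds 5479 gene models, and each of the 41 genes had a single model with the length of its R64 gene, a coding sequence.

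CEN.PK113-7D, the reference, is a laboratory strain with intact ACS1 and ACS2, the genes of the acetyl-CoA synthetases that activate acetate. IMY104 carries deletions of both (acs1Δ acs2Δ) and the centromeric plasmid pUDC140. The plasmid holds the Enterococcus faecalis genes pdhA, pdhB, aceF and lpd for a pyruvate dehydrogenase complex, and lplA and lplA2 for lipoylation. Each strain was grown in 3 independent aerobic, glucose-limited chemostats held at pH 5.0 and 30 °C. The dilution rate was 0.10 per h, and both strains received lipoic acid (500 ng/mL) beside glucose (7.5 g/L). IMY104 is a single strain, and the table's own name for its libraries cites another member of the CEN.PK family. The question was how transcript levels differ when cytosolic acetyl-CoA comes from the bacterial complex.

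RNA was sequenced, and the authors gave 1 value per strain as FPKM, which is fragments scaled to gene model length and to the total of fragments. No value per culture is given, so no SD, no overlap between cultures and no depth can be stated, and the error of a change is known only through the authors' test. A gene is called here when the authors' q-value, a p-value adjusted over all tested models, is under 0.05. The deleted and introduced genes were where the labels place them: ACS1 went from 1094 to 0.882 FPKM and ACS2 from 494 to 0.179 between CEN.PK113-7D and IMY104 per the authors' deposited table. The plasmid genes had 344 to 10685 FPKM in IMY104 and no more than 2.74 in CEN.PK113-7D in the same table.

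Peroxisomes are organelles bounded by a single membrane, and in yeast they house the whole of fatty acid β-oxidation. Their matrix proteins are made in the cytosol and carried in folded by cycling receptors, while peroxins (PEX proteins) build the membrane, dock and recycle the receptors and set the organelle's size and number. When yeast grows on oleate, the transcription factors Oaf1 and Pip2 bind as a pair to the oleate response element in front of many of these genes, and Adr1 acts with them once glucose is scarce.

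Of the 31 genes, 3 fell, 1 rose and 27 were not called. TES1, a peroxisomal acyl-CoA thioesterase, fell 1.48-fold, PEX5, the main import receptor, fell 1.43-fold, and DCI1, a dienoyl-CoA isomerase, fell 1.37-fold in IMY104 per the authors' deposited table. FIS1, the membrane anchor of the fission machinery on mitochondria and peroxisomes, rose 1.28-fold in that table. The 12.9% called compares with 22.6% of all 5463 tested models called per the authors' deposited table. By direction, 11.0% of tested models were called lower and 11.6% higher. No member changed 2-fold, against 1.89% of tested models that were called and changed at least 2-fold. The median log2 fold change, IMY104 relative to CEN.PK113-7D, was -0.08 over the 31 genes and 0.0076 over all tested chromosomal models. A log2 fold change below 0 was listed for 22 of the 31 genes (71.0%) and for 47.9% of the tested chromosomal models.

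Each of the 3 genes that fell holds a match to the oleate response element in its promoter window. The window was taken as 250 bases before to 50 bases after the start codon in the RefSeq R64 sequence. R64 is the genome of strain S288C, so the CEN.PK sequence could differ. The element searched was CGGNNNTNA, then 9 to 12 bases of any kind, then CCG, on either strand, where N is any base. Matches to these letters are called the element below, and binding was not measured. The windows of the 3 genes that fell are shown first, 5′ to 3′ on the gene's strand, with the element in capitals.
PEX5 (chrIV:950313-950612, plus strand): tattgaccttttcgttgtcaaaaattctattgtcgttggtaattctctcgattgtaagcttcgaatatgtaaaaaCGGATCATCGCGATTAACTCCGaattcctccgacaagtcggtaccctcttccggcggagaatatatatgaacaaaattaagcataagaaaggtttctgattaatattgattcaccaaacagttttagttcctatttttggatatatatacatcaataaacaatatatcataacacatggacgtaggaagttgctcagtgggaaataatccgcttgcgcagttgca
TES1 (chrX:468232-468531, minus strand): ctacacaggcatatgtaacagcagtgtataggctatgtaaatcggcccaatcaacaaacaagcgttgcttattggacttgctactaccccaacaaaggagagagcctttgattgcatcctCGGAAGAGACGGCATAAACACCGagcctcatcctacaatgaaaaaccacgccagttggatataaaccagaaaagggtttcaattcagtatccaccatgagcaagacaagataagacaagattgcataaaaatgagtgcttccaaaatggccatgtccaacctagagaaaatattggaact
DCI1 (chrXV:675118-675417, minus strand): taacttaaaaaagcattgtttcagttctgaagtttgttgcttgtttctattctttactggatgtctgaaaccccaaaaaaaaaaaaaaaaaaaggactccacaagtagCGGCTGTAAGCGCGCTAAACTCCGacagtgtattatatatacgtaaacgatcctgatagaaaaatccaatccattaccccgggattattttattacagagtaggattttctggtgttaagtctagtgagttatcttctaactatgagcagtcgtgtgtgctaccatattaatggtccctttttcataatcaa

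The element also stood in 4 members that were not called, shown here with 10 bases on each side to compare the sites.
PEX11 (chrXV:48746-48788, minus strand): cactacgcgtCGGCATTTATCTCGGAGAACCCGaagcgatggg
PEX13 (chrXII:537106-537149, plus strand): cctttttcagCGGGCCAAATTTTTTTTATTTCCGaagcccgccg
PEX6 (chrXIV:22744-22787, minus strand): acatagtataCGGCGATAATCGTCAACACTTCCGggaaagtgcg
PIP2 (chrXV:1023338-1023378, minus strand): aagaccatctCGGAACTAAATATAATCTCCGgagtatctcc

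In all, 7 of the 31 members (22.6%) held the element, against 54 of 6007 promoters of the R64 annotation (0.899%). The element is known in front of many peroxisomal genes, as given above. The list and the element are therefore not independent, and the higher share is no separate evidence. None of the 10 further peroxins held it. The sites began 130 bases before the start codon in TES1, 135 in PEX11, 142 in DCI1, 144 in PEX6, 156 in PEX13 and PIP2, and 175 in PEX5. In PEX5, PEX13 and TES1 the letters read on the strand opposite the gene, in PEX6 and PEX11 on the gene's strand, and in DCI1 and PIP2 on both. The median log2 fold change was -0.20 over the 7 members with the element and -0.03 over the 24 without it. PEX5 is among the 7, and its value was close to that of its chromosomal neighbours, differing from their median by -0.04, as described below. PEX13 was the one of the 7 with a value above 0, at 0.24 and not called per the authors' deposited table.

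Across the genome, 48 tested genes held the element, of which 11 were called lower and 4 higher (22.9% and 8.33%). Among the 5277 tested genes without it, 10.8% were called lower and 11.4% higher. A log2 fold change below 0 was listed for 54.2% of the 48 genes and for 47.6% of the 5277. The lower genes with a match were mostly peroxisomal. Without the members and the β-oxidation list 36 genes with a match remained, of which 3 were called lower and 4 higher (8.33% and 11.1%). In the β-oxidation list 5 of 10 genes held the element. A window of the 500 bases before the start codon, chosen after the values were seen, found it in 8 of 31 members, 9 of 10 β-oxidation genes and 1.88% of all promoters. In that window 24 of 100 tested genes with a match were called lower and 15 higher, and outside the members and the β-oxidation list 14.5% were lower and 18.1% higher.

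**Figure D1:**
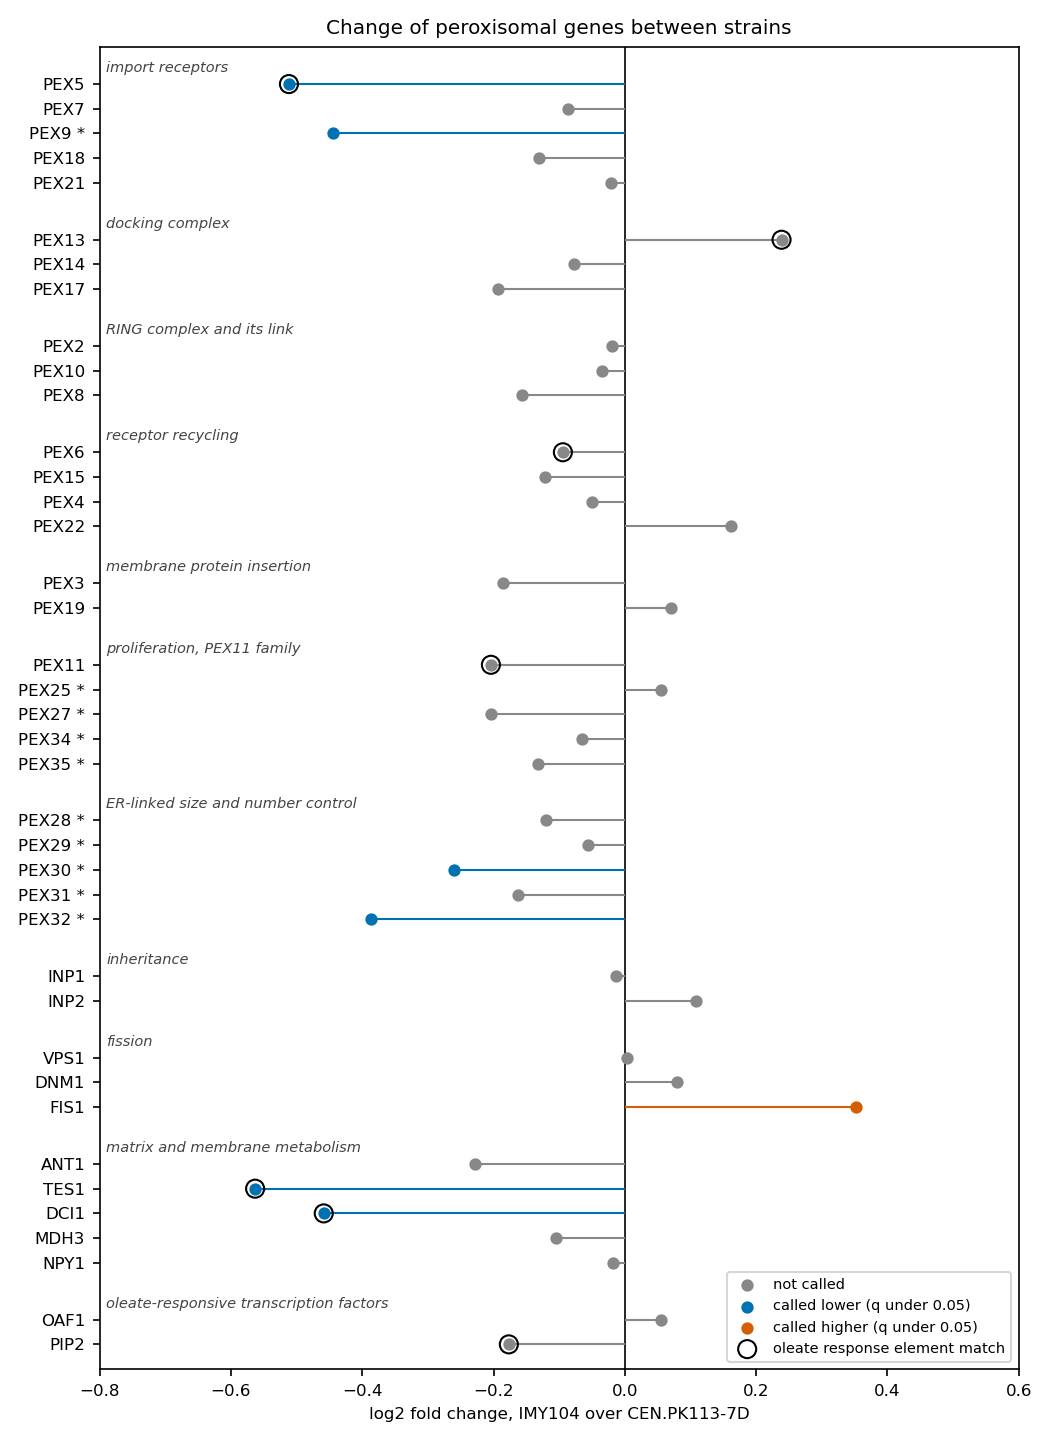
Log2 fold change, IMY104 relative to CEN.PK113-7D (horizontal axis), for the members described in the text and the 10 further peroxins (marked *), by role, from the authors' deposited table. Blue points were called lower and the orange point higher at q under 0.05, and grey points were not called. Black rings mark a match to the oleate response element. PEX5, TES1 and DCI1 are the members called lower, each with a ring, and FIS1 is the only member called higher.

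Import receptors bind matrix proteins in the cytosol. PEX5 (YDR244W, chromosome 4, 949720 to 951558 on the assembly of the table) encodes the receptor for the common C-terminal signal. Its level was 148 FPKM in CEN.PK113-7D against 104 in IMY104 per the authors' deposited table, a log2 fold change of -0.51 (q = 0.00047). That q is the smallest listed, and 581 models share it. PEX9, a further peroxin and a second receptor of the same kind that serves a few cargoes during growth on oleate, fell from 42.4 to 31.2 FPKM per the authors' deposited table, with a log2 fold change of -0.44 (q = 0.00047).

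PEX7, the receptor for the N-terminal signal, had 93.7 and 88.3 FPKM in CEN.PK113-7D and IMY104 per the authors' deposited table, and its log2 fold change of -0.09 was not called. Its paired co-receptors PEX18 and PEX21 stood at different levels, 35.5 and 229 FPKM in CEN.PK113-7D and 32.5 and 226 in IMY104 per the authors' deposited table. Neither co-receptor was called. All 5 receptor genes had values below 0, and 2 of them, PEX5 and PEX9, were called lower. For comparison, 11.0% of all tested models were called lower, and 47.9% of the tested chromosomal models were below 0. PEX5 was close to its chromosomal neighbours, as described below. Whether the receptors fell as a group was not tested.

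The fall of PEX5 was not set apart from that of its chromosomal neighbours. PEX5 lies in an uninterrupted run of 49 gene models on chromosome 4 that were all below 0, from GCD6 to DIN7, 883756 to 994562, a span of 110.8 kb. The next longest run of models below 0 held 12. In the run 45 models were called lower and 4 were not called, and the median log2 fold change of the 48 models other than PEX5 was -0.51. PEX5 differed from that median by -0.0018, and 23 models of the run were lower still. The adjacent genes PRP28 and MNN10, a splicing helicase and a mannosyltransferase subunit, had log2 fold changes of -0.43 and -0.50, both called, per the authors' deposited table. What lowered the run was not tested.

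**Figure D2:**
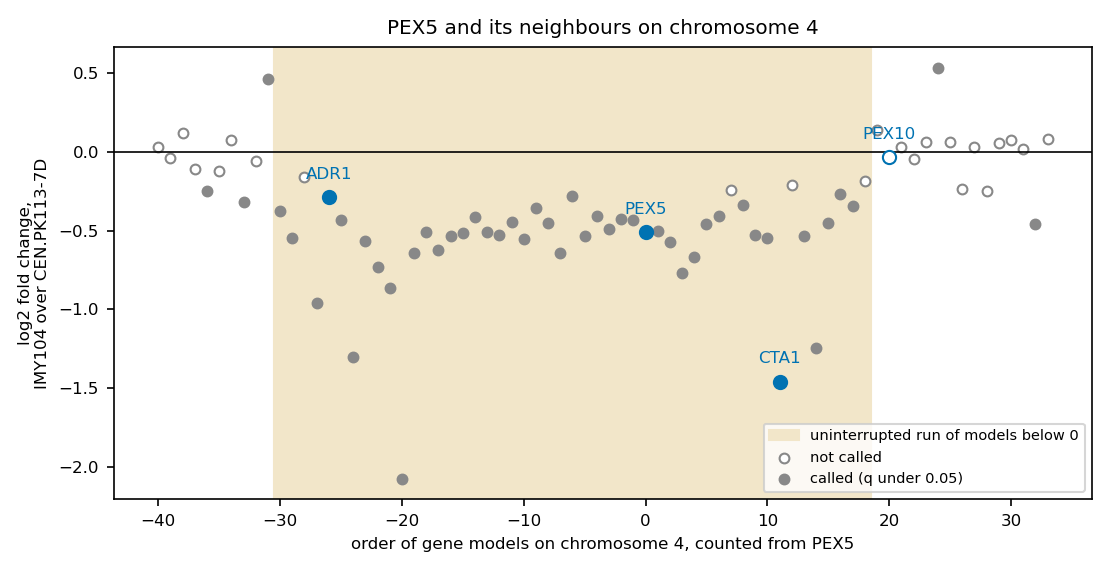
Log2 fold change, IMY104 relative to CEN.PK113-7D (vertical axis), for gene models in their order on chromosome 4, counted from PEX5 (horizontal axis). The shaded band is the run of 49 models below 0. PEX5 lies at the level of the models around it, CTA1 lies below them at -1.46, and PEX10 lies just beyond the band at -0.03.

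Among the genes set beside the members, CTA1 and ADR1 are in the same run. CTA1, the peroxisomal catalase, had a log2 fold change of -1.46 per the authors' deposited table, and stayed at -1.03 after the median of the 10 models on either side was subtracted. ADR1, the transcription factor named above, was called lower at -0.29 (q = 0.0166) per the authors' deposited table, and the same subtraction gave 0.23. For PEX5 it gave -0.04. For TES1, DCI1 and FIS1 it gave -0.55, -0.50 and 0.42, close to their own values, since the models around them had medians of -0.0093, 0.04 and -0.07.

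**Figure D3:**
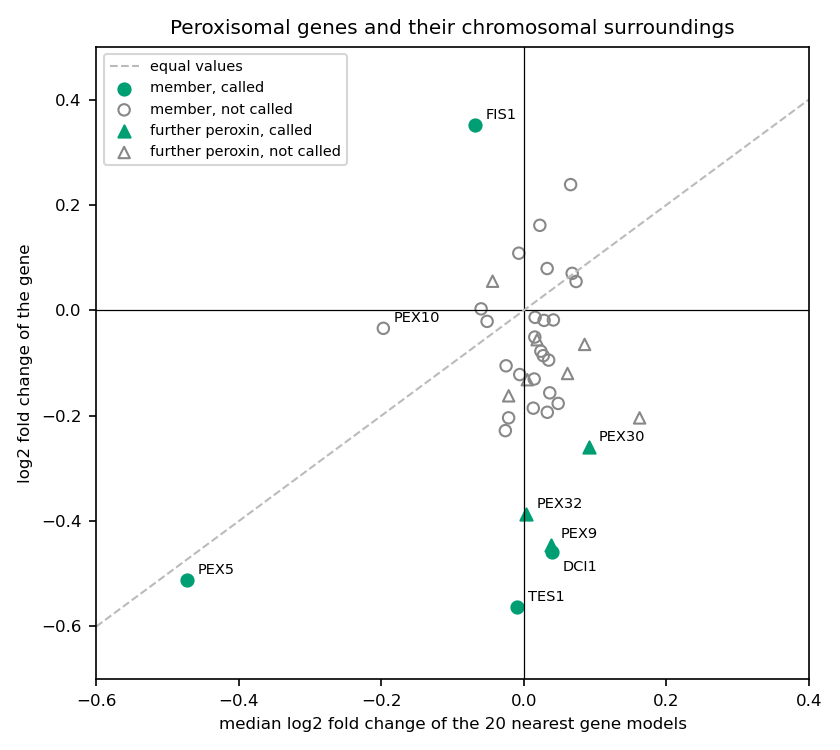
Log2 fold change of members (circles) and further peroxins (triangles) on the vertical axis against the median log2 fold change of the 20 nearest gene models on the horizontal axis. Filled symbols were called at q under 0.05, and the dashed line marks equal values. PEX5, with surroundings at -0.47, is the called gene on the line, and the other called genes lie away from it.

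The docking complex receives loaded receptors at the membrane, and none of its 3 genes was called. PEX13, its SH3 protein, had the highest value among the uncalled members, with 77.0 FPKM in CEN.PK113-7D against 90.8 in IMY104 per the authors' deposited table. Its log2 fold change of 0.24 was just beyond the threshold (q = 0.0506). PEX14, the docking partner of the receptor, had -0.08, and PEX17, which binds Pex14, had -0.19 per the authors' deposited table.

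The RING proteins Pex2 and Pex10 belong to the ubiquitin ligase that marks receptors for release, and Pex8 links the ligase to the docking complex. Their levels per the authors' deposited table ranged from 58.6 FPKM (PEX8) to 212 (PEX2) in CEN.PK113-7D and from 52.6 to 209 in IMY104. The log2 fold changes were -0.02 for PEX2, -0.03 for PEX10 and -0.16 for PEX8 per the authors' deposited table, and none was called. PEX10 is 2 models beyond the end of the chromosome 4 run, with 1 model between them.

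Receptor recycling pulls the marked receptor out again. PEX6, an ATPase that does the pulling, had 47.3 FPKM in CEN.PK113-7D against 44.3 in IMY104 per the authors' deposited table, a log2 fold change of -0.09 that was not called. PEX15, its membrane anchor, had -0.12 per the authors' deposited table and was not called. PEX4, the ubiquitin-conjugating enzyme, had -0.05, and PEX22, which holds Pex4 at the membrane, had 0.16 per the authors' deposited table, and neither was called.

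PEX22 is the neighbour of the deleted ACS1 gene. The genes face each other tail to tail with 159 bases between their coding sequences (PEX22 at chromosome 1, 42233 to 42775). ACS1 had a log2 fold change of -10.28, while PEX22 had 96.3 FPKM in CEN.PK113-7D against 108 in IMY104 per the authors' deposited table (q = 0.276). OAF1, also on chromosome 1, from 48620, had 29.1 and 30.2 FPKM per the authors' deposited table and was not called either.

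Membrane protein insertion rests on PEX3 and PEX19, the membrane anchor and the soluble chaperone. Their log2 fold changes were -0.19 and 0.07 per the authors' deposited table, and neither was called. PEX3 had 205 and 180 FPKM, and PEX19 had 156 and 164, in CEN.PK113-7D and IMY104 in that table.

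PEX11, which elongates the membrane before division, had the highest level of all members, 1149 FPKM in CEN.PK113-7D against 997 in IMY104 per the authors' deposited table. A lower FPKM in CEN.PK113-7D was listed for 94.0% of tested chromosomal models. Its log2 fold change of -0.20 was not called (p = 0.0369, q = 0.124 per the authors' deposited table). Its relatives PEX25 and PEX27, both further peroxins, stood at 190 and 88.1 FPKM in CEN.PK113-7D and at 198 and 76.5 in IMY104 per the authors' deposited table, and were not called. PEX34 and PEX35, which act on peroxisome number, had log2 fold changes of -0.06 and -0.13 in that table, also not called.

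PEX28, PEX29, PEX30, PEX31 and PEX32, all further peroxins, are related proteins that limit peroxisome size and number, partly at the endoplasmic reticulum. All 5 had values below 0 and 2 were called lower, beside 11.0% of all tested models called lower and 47.9% of the tested chromosomal models below 0. Whether they fell as a group was not tested. PEX32 fell from 92.6 to 70.8 FPKM per the authors' deposited table, with a log2 fold change of -0.39 (q = 0.00047). PEX30 fell from 39.7 to 33.1 FPKM per the authors' deposited table, with -0.26 (q = 0.0393). PEX31, PEX28 and PEX29 had -0.16, -0.12 and -0.06 in that table and were not called.

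PEX32 faces the heat shock protein gene SSE2 tail to tail, with 302 bases between them, and SSE2 had a log2 fold change of -1.22 per the authors' deposited table. No step that marks the strand is named in the labels, and the part of SSE2 reads in the value of PEX32 was not tested. Over the 10 further peroxins, 3 were called lower and none higher (30.0%, against 22.6% of all tested models called and 11.0% called lower), with a median log2 fold change of -0.15. PEX30 was not called at q under 0.01. With the members they made 41 genes, of which 6 were called lower and 1 higher. The 17.1% called in all is below the 22.6% of all tested models, where 11.0% were called lower and 11.6% higher. PEX5, which was close to its chromosomal neighbours, is among the 6 called lower. The 10 further peroxins, which hold 3 of the 6, were added after the data were seen. Whether the directions differed from those of all tested models was not tested.

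**Figure D4:**
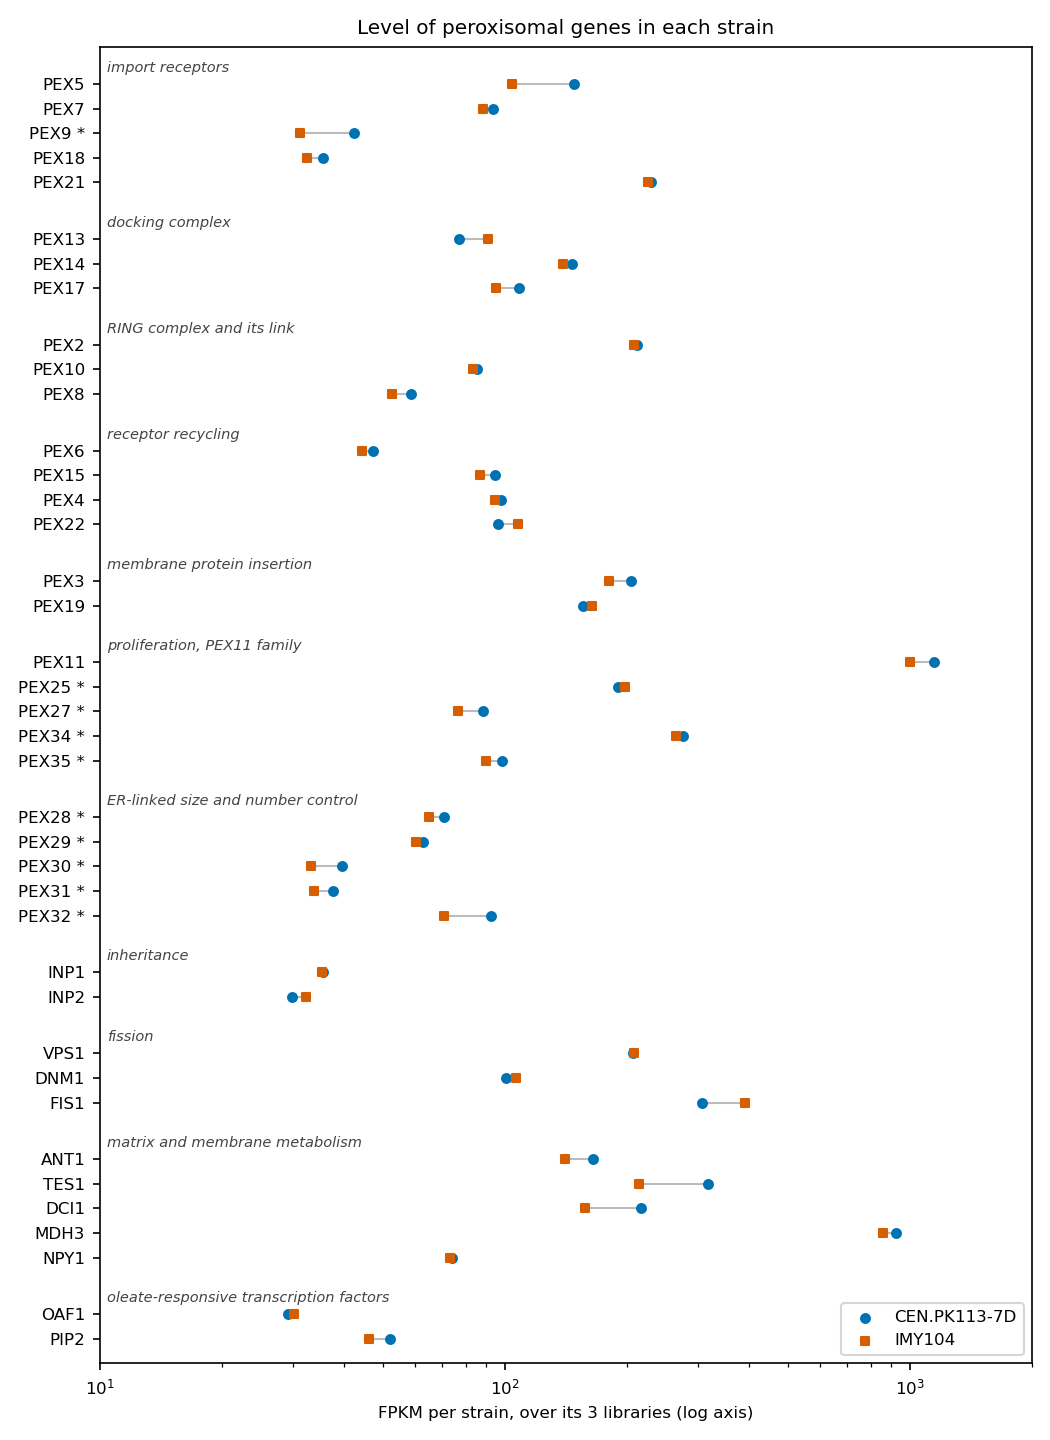
Level of the members described in the text and of each further peroxin (marked *) in FPKM on a log axis, with 1 value per strain from the authors' deposited table, CEN.PK113-7D as circles and IMY104 as squares. The genes drawn span 29.1 FPKM (OAF1) to 1149 (PEX11) in CEN.PK113-7D, and the strains differ by less than 1.5-fold in every gene shown.

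Fission and inheritance decide how many peroxisomes a cell and its bud hold. FIS1 (YIL065C, chromosome 9, 241646 to 242113) rose from 306 FPKM in CEN.PK113-7D to 391 in IMY104 per the authors' deposited table, a log2 fold change of 0.35 (q = 0.00199). The dynamin-like proteins that act with Fis1 or beside it were not called: DNM1 had 101 and 106 FPKM, and VPS1 had 208 in both strains, per the authors' deposited table. The Fis1 adaptors MDV1 and CAF4 had log2 fold changes of 0.13 and 0.14 in that table and were not called. Before FIS1, the ribonucleotide reductase gene RNR3 fell with -0.68, from 5.95 FPKM in CEN.PK113-7D to 3.72 in IMY104 per the authors' deposited table. After FIS1, EFM4, a methyltransferase gene, had 0.23 in that table and was not called.

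INP1, which holds peroxisomes in the mother cell, had 35.7 and 35.3 FPKM in CEN.PK113-7D and IMY104 per the authors' deposited table. INP2, the receptor that ties peroxisomes to the motor Myo2, had 29.9 and 32.2, and neither was called. MYO2 itself had a log2 fold change of 0.02 per the authors' deposited table. Of the peroxisome turnover genes ATG36 and ATG11, which act in the autophagy of peroxisomes, the values were -0.18 and -0.06 in that table, and neither was called.

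Among the enzymes and the carrier, all 5 genes had values below 0, with NPY1 nearest to it at -0.02, and 2 were called lower. The share called lower was 11.0% in all tested models, and 47.9% of the tested chromosomal models were below 0. Whether these 5 genes fell as a group was not tested. TES1 (YJR019C, chromosome 10, 449791 to 450840), which splits acyl-CoA into fatty acid and coenzyme A, had 316 FPKM in CEN.PK113-7D against 214 in IMY104 per the authors' deposited table. Its log2 fold change of -0.56 was the lowest of all members (q = 0.00047). DCI1 (YOR180C, chromosome 15, 674253 to 675068), which rearranges double bonds of unsaturated fatty acids, had 217 and 158 FPKM per the authors' deposited table, a log2 fold change of -0.46 (q = 0.00047). ECI1, its relative and the main enoyl-CoA isomerase of the β-oxidation list, fell with -0.87 per the authors' deposited table.

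ANT1, which brings ATP into the peroxisome to activate fatty acids, had 165 and 141 FPKM per the authors' deposited table, and its log2 fold change of -0.23 was not called (q = 0.0614). MDH3, the malate dehydrogenase that regenerates NAD for β-oxidation, was the member with the second highest level, 921 and 857 FPKM per the authors' deposited table, and was not called. NPY1, which cleaves NADH, had 74.2 and 73.2 FPKM in that table and was not called.

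Neither partner of the oleate-responsive pair was called. OAF1 had a log2 fold change of 0.05 and PIP2, whose own promoter holds the element shown above, had -0.18 with 52.1 and 46.1 FPKM in CEN.PK113-7D and IMY104 per the authors' deposited table (q = 0.164). Of 3 further regulators, ADR1 was called lower as given above. OAF3, a repressor of oleate-responsive genes, had 0.02, and SNF1, the kinase that acts upstream of Adr1, had -0.15 per the authors' deposited table, and neither was called.

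Other genes of the organelle were set beside the 31, with no test between the lists. In the β-oxidation list all 10 genes were called lower, from POX1 at -0.29 to CTA1 at -1.46, with a median log2 fold change of -0.64, beside -0.08 in the members. The fatty acid importer genes PXA1 and PXA2 fell with -0.75 and -0.63 and the acyl-CoA synthetase gene FAA2 with -0.64 per the authors' deposited table. This list was known to be lower from earlier results of these data, so it is no independent evidence. Of the 10 other matrix enzymes, 3 fell, 2 rose and 5 were not called, with a median of -0.10. In all tested models 11.0% were called lower and 11.6% higher. The list of other matrix enzymes was also chosen with earlier results of these data known, so its share of calls is no independent evidence. None of the 5 partners of fission, inheritance and turnover was called, with a median of 0.02. STR3, a cystathionine β-lyase, fell with -0.57, LPX1, a lipase, with -0.49 and PNC1, the nicotinamidase, with -0.47 per the authors' deposited table. The citrate synthase gene CIT2 rose with 2.01 and LYS1, the last enzyme of lysine synthesis, with 0.28 in that table.

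**Figure D5:**
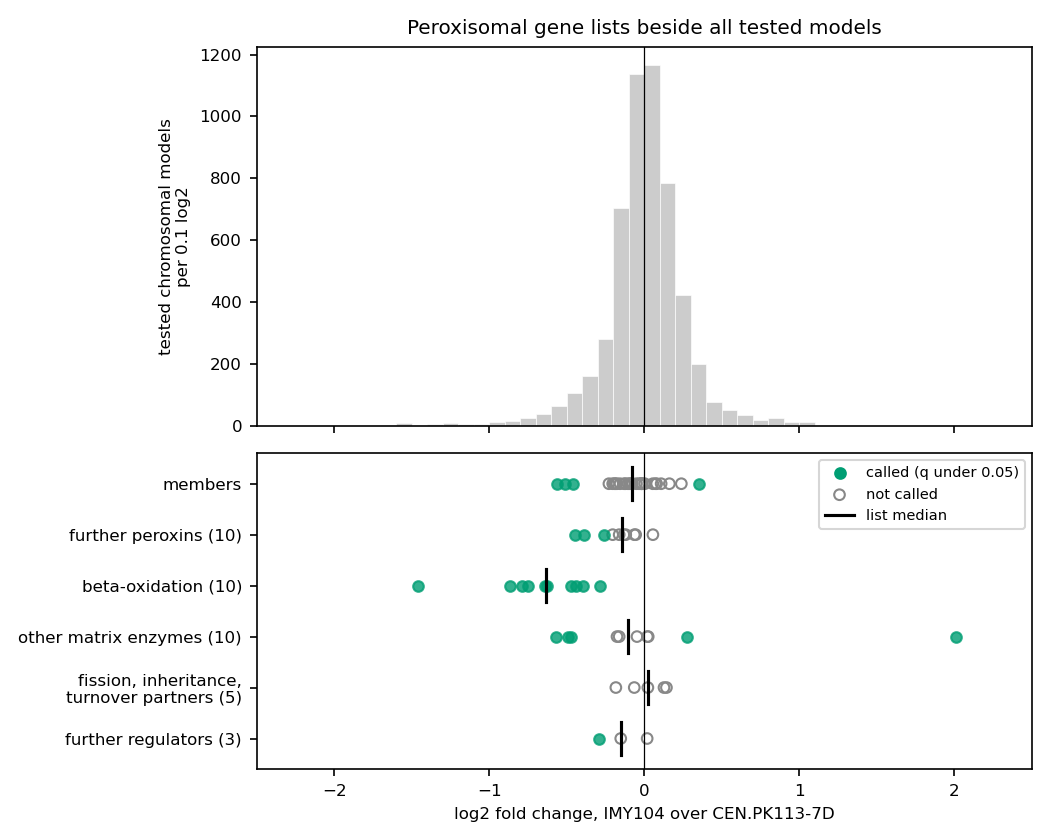
The upper panel counts tested chromosomal models per 0.1 of log2 fold change, IMY104 relative to CEN.PK113-7D, with 6 models outside the range drawn. The lower panel shows genes of the members, the further peroxins and 4 other lists on the same axis, filled where called at q under 0.05, with the list median as a black bar. The members centre at -0.08 and the β-oxidation list at -0.64.

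Among the uncalled members, PEX13, ANT1 and PEX11 had an unadjusted p under 0.05 per the authors' deposited table. A missed call does not show that a level was equal in both strains, since the table gives no interval for a change.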

How the data were processed

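RNA was measured in 6 libraries, 3 per strain. Per the labels' protocols, fragmented cDNA was sequenced from both ends, with an insert size of 350 bp. The submitters' processing notes name Cuffdiff and Cufflinks, SAMtools (0.1.7-r510), BWA (0.5.9-r16) and CASAVA (1.8.2) with no role for any of them. For build and scaling, nothing is given in the sources used here. The 3 cultures of a strain were combined in 1 FPKM value per gene model, per the file headers, and the authors deposited the log2 fold change, a test statistic (a score with the sign of that change), a p-value and a q-value. Coordinates are those of the authors' assembly, counted from 1, except promoter sequences, which are RefSeq R64.

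After 5447 blank lines were dropped, 5463 of 5479 models had been tested. The deposited q-values equalled recomputed Benjamini-Hochberg values within 1e-06, and the deposited log2 values equalled the log2 ratio of FPKM within 0.0001. The adjustment code was tested on simulated data. The smallest p was 5e-05. A limma fit on libraries had been planned in case values per library were given. The table gives 1 value per strain, so the authors' test was kept. Members, lists and roles were chosen with earlier results of these data known. Some members enter the counts and medians but are not reported here by themselves. All other members are named, and other genes come from 4 fixed lists, the marker genes and direct neighbours, the last chosen after values were seen. A planned look at the C-terminal residues of the proteins was not run. Python 3.11.15, pandas 2.3.3 and NumPy 2.4.6 were used.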

Additional observations from a re-analysis of the deposited data

How the results depend on the processing

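The counts of 1 member called higher and 3 called lower were the same with q under 0.01 and with Benjamini-Yekutieli adjustment. Keeping only models with a mean of at least 5 FPKM, or of at least 300 bp, removed no member and left the counts the same. Another choice of model per gene could change nothing, since each member had a single model. A change of at least 2-fold left 0 higher and 0 lower. With the 10 further peroxins, added after the data were seen, 6 were lower, and without the member in the chromosome 4 run 2 were lower. The median log2 fold change of the members stayed below 0, between -0.09 and -0.05, under 2 pseudocounts, centring, quantile normalization and the other sets. PEX30 was not called with q under 0.01 or Benjamini-Yekutieli adjustment. Among the genes outside the members, ADR1, LYS1 and POX1 lost their calls under the same settings, and ADR1 changed sign to 0.23 after the median of the 10 models on either side was subtracted. No paired analysis was possible because the table gives 1 value per strain, and for the same reason no library could be left out. The depth is unknown.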
